A study of Gallus gallus with 8 samples.

Results

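The enzymes that break sugar down to lactate and those that store and release glycogen were examined in chicken breast muscle, as 35 genes of 17108 counted. They are the genes of the authors' deposited test results that carry a symbol from a list of 46 such symbols. Of the 35, 20 are enzymes of glycolysis and its regulation and 15 are genes of glycogen turnover. Those results hold an entry for 8076 of the 17108 genes. The other 11 symbols, ALDOA, ENO3, PGK2, PKM2, PYGM, GYS1, GYS2, GYG2, PHKA2, PHKG2 and PPP1R3D, were not found there and are not analysed here, so the muscle forms of aldolase, enolase, glycogen phosphorylase and glycogen synthase are not described. Whether these genes were counted without an entry could not be determined. The birds were female Hubbard Flex broilers of 6 weeks, a fast-growing meat-type chicken. The pectoralis, or breast, muscle of 4 birds had a high shear force (high-shear birds) and that of the other 4 a low one (low-shear birds). Meat toughness is measured by this force, which a blade needs to pass through it. No agent or allele separates the groups, and all birds share strain, sex, age and muscle. The labels give each bird a number within its group, without its own shear force.

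Glycolysis splits glucose in the cytosol into pyruvate, which lactate dehydrogenase can turn into lactate when oxygen is short. Glycogen is the branched glucose store that a muscle fibre builds from UDP-glucose and breaks with phosphorylase to feed glycolysis. The chicken breast is made almost entirely of fast glycolytic fibres, and glycogen use after slaughter sets how far the pH of the meat falls, which is known to bear on its texture.

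The values are expected counts, that is, estimated reads per gene that need not be whole, and totals ran from 6672776 to 7322205 in the high-shear birds and from 5564905 to 7319140 in the low-shear birds. The 12 fast fibre markers measured summed to 137800 to 167860 CPM in the high-shear birds and 127370 to 177870 CPM in the low-shear birds, where CPM is the count scaled to a common library size. Among them PVALB, parvalbumin, was low, at 9.36 ± 4.34 CPM in the high-shear birds and 17.5 ± 5.62 CPM in the low-shear birds (SD, n = 4 each), and was the 1 fast marker with an unadjusted p under 0.05 (edgeR adjusted p = 0.347). The 11 slow and cardiac markers summed to 6458 to 12229 CPM in the high-shear birds and 7478 to 11654 CPM in the low-shear birds, most of it from the troponin gene TNNC1, at 8970 ± 2936 CPM in the high-shear birds and 8832 ± 1847 CPM in the low-shear birds (SD, n = 4 each). MYH15, a slow and cardiac myosin, averaged 11.1 ± 3.73 CPM in the high-shear birds and 28.9 ± 9.56 CPM in the low-shear birds (SD, n = 4 each). MYH15 did not overlap between the groups and was called by DESeq2 (adjusted p = 0.0015) but not by edgeR (adjusted p = 0.118). Low-shear birds 1 and 3 stood apart from the other 6 on the first principal component, and results that rest on them are given with and without them. All 10 fibroblast markers measured had a positive log2 fold change, 0 were called by the edgeR quasi-likelihood test, 5 had an unadjusted p under 0.05 and DESeq2 called 1. The fibroblast markers summed to 3698 to 5147 CPM in the high-shear birds and 2659 to 3627 CPM in the low-shear birds. Over all genes tested, 12.8% had an unadjusted edgeR p under 0.05, DESeq2 called 1.21% and 6.18% did not overlap between the groups. Since these are bulk samples, fewer cells of a type and less RNA per cell cannot be told apart.

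No glycolysis or glycogen gene was called different between the groups, and the main edgeR test called no gene of any kind. With 4 birds per group, this does not show that the levels were equal. In edgeR's quasi-likelihood test 0 of 35 had an adjusted p under 0.05, against 0 of 10136 genes tested (0%), and the smallest adjusted p of the 35 was 0.413, for PPP1R3A. An unadjusted p under 0.05 was found for 0 of 35, where 12.8% of all genes had one, 7.92% with a higher and 4.91% with a lower level in the high-shear birds. In none of the 35 did all birds of 1 group lie above all birds of the other, which 6.18% of all genes showed, 3.89% higher and 2.29% lower in the high-shear birds. DESeq2 called 0 of the 35 and 1.21% of all genes. Of the 35, 0 had in the authors' deposited table an edgeR FDR or a DESeq2 adjusted p under 0.05, against 1.13% and 1.82% of its genes. All 35 genes passed the filter on low counts, as did all 8076 genes with an entry in the authors' table. Passing was therefore fixed by how the 35 were chosen, and genes without an entry there are left out.

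Most of the fold changes were small. A log2 fold change is given as high over low shear force throughout. For 32 of the 35 genes the 95% interval of this value lay between -1 and 1, that is, within a 2-fold difference either way, and for 9 it lay between -0.5 and 0.5. The 3 exceptions to the wider bound were PFKFB3, PPP1R3A and PPP1R3C. That bound held for 91.4% of the 35, for 68.3% of all genes tested and for 79.6% of the 8076 with an entry in the authors' table. Among genes with a mean of 100 CPM or more it held for 87.9%. Of the 9 within the narrower bound, 8 were glycolysis genes and 1 was a glycogen gene. The 20 glycolysis genes had a median of 0.0020, with 10 positive and 10 negative, and 8 positive with RLE scaling or 11 with upper-quartile scaling. The 15 glycogen genes had a median of -0.18, with 3 positive and 12 negative, or 4 and 11 with upper-quartile scaling. Over all 10136 genes the median was 0.0064 and 50.8% were positive. Without low-shear birds 1 and 3 the medians were 0.017 for glycolysis and -0.11 for glycogen.

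**Figure D1:**
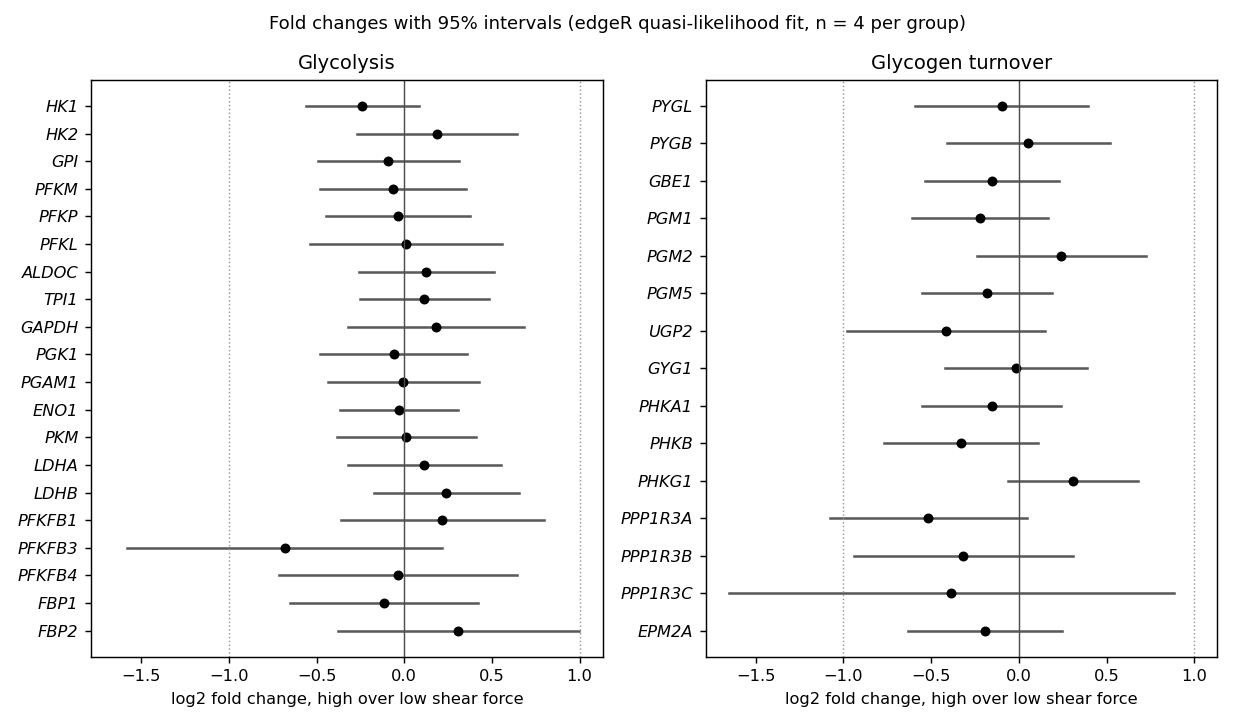
Log2 fold change of each gene in the high over the low-shear birds (points) with its 95% interval (lines), for 20 glycolysis genes and 15 glycogen genes in pathway order; dotted lines mark a log2 fold change of -1 and 1. Every interval spans 0, and those of PFKFB3, PPP1R3A and PPP1R3C reach past -1.

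Together the 20 glycolysis genes took 17.2%, 19.7%, 16.3% and 16.8% of all counts in high-shear birds 1 to 4 and 16.6%, 17.7%, 15.2% and 14.5% in low-shear birds 1 to 4. The ranges of the groups overlapped, and counting error on such a share was at most 0.0292 percentage points (Wilson 95% interval, half-width), far under the spread between birds. GAPDH alone held 9.66% ± 1.47 of the counts in the high-shear birds and 8.41% ± 1.42 in the low-shear birds (SD, n = 4 each). The 15 glycogen genes took 1.08% ± 0.0526 in the high-shear birds and 1.21% ± 0.120 in the low-shear birds (SD, n = 4 each). By bird, this share was 1.15%, 1.04%, 1.04% and 1.08% in high-shear birds 1 to 4. It was 1.27%, 1.16%, 1.35% and 1.07% in low-shear birds 1 to 4. The ranges overlapped, and low-shear birds 1 and 3 had the highest shares. Scaling factors computed without these 35 genes left their medians at 0.0012 and -0.18.

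The first steps trap glucose in the cell and commit it to glycolysis. HK1, a hexokinase that adds the first phosphate (chromosome 6, 10469531 to 10496298, in the coordinates of the deposited table, whose build per the submitters' processing notes is galGal4), stood at 312, 291, 283 and 355 CPM in the high-shear birds and at 379, 393, 383 and 310 CPM in the low-shear birds. All 4 high-shear birds were below low-shear birds 1, 2 and 3, while low-shear bird 4 lay among them, and the log2 fold change was -0.24 ± 0.15 (SE; edgeR adjusted p = 0.505). HK2, the insulin-responsive hexokinase of mammalian muscle, had 20.7, 27.2, 29.7 and 23.4 CPM in the high-shear birds and 27.4, 14.6, 26.4 and 20.5 CPM in the low-shear birds. Its groups overlapped over most of their range, with a log2 fold change of 0.19 ± 0.21 (SE), or 0.49 ± 0.22 (SE) without low-shear birds 1 and 3, where the edgeR adjusted p was 0.65. HK2 lies on an unplaced scaffold, where its annotated span overlaps that of GMCL1. In all 8 birds the counts of these 2 genes summed to a whole number within 0.031, as they do when reads are divided between a pair of genes, so the HK2 level depends on how that division was made. GPI, which turns glucose phosphate into fructose phosphate, averaged 4200 ± 826 CPM in the high-shear birds and 4471 ± 422 CPM in the low-shear birds (SD, n = 4 each), a log2 fold change of -0.09 ± 0.18 (SE).

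Phosphofructokinase is the main control point of the pathway, and its 3 genes in vertebrates are named for muscle, platelet and liver. The muscle gene PFKM had 4262, 3348, 4200 and 3755 CPM in the high-shear birds and 4699, 4903, 3286 and 3365 CPM in the low-shear birds. Low-shear birds 1 and 2 were above all high-shear birds and birds 3 and 4 were level with the lowest of them, and the log2 fold change was -0.06 ± 0.19 (SE). For every 100 PFKM counts there were 0.707 ± 0.147 counts of PFKP in the high-shear birds and 0.729 ± 0.284 in the low-shear birds, and 0.147 ± 0.0354 and 0.144 ± 0.0483 counts of PFKL (SD, n = 4 each). These ratios are of counts and are not corrected for the length of the transcripts, and PFKL rested on 26 to 50 counts per bird. PFKM lies on an unplaced scaffold. PFKM counts were not whole in any of the 8 birds, and no gene with which it shared reads was found.

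PFKFB genes encode the bifunctional enzymes that make and break the sugar bisphosphate that activates phosphofructokinase. PFKFB3, the form known to be induced by hypoxia in mammals (chromosome 1, 3450218 to 3478178), had 49.3, 43.5, 29.1 and 43.5 CPM in the high-shear birds and 102, 54.8, 19.4 and 89.7 CPM in the low-shear birds. All low-shear birds but bird 3 were above all high-shear birds, and bird 3 was below all of them. The log2 fold change was -0.68 ± 0.41 (SE), the farthest from 0 of the 35, with an edgeR adjusted p of 0.494 and a 95% interval from -1.58 to 0.22. It stood at -1.002 without low-shear bird 3 and at -0.42 without low-shear bird 1. PFKFB3 counts were not whole in 4 birds, and no gene with which it shared reads was found.

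PFKFB1 and PFKFB4 showed wide spreads in the low-shear birds. PFKFB1, the form of liver and muscle in mammals, had 35.1, 47.3, 32.7 and 34.3 CPM in the high-shear birds and 34.7, 17.7, 49.0 and 26.6 CPM in the low-shear birds, with a log2 fold change of 0.22 ± 0.26 (SE), or 0.72 ± 0.23 (SE; edgeR adjusted p = 0.481) without low-shear birds 1 and 3. It is annotated on an unplaced scaffold over a span of 1382 bases. PFKFB4 was near the limit of what the depth can show, with 17 to 55 counts per bird, and stood at -0.03 ± 0.31 (SE).

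The fructose bisphosphatases run the commitment step backward, FBP1 as the liver form and FBP2 as the muscle form in mammals. FBP2 (chromosome Z, 41279377 to 41302319) had 4682, 2578, 1429 and 2021 CPM in the high-shear birds and 2253, 2609, 1709 and 2084 CPM in the low-shear birds. Bird 1 of the high-shear group was far above the rest, and high-shear bird 3 was the lowest of all. The log2 fold change was 0.31 ± 0.31 (SE), and -0.11 without high-shear bird 1. FBP2 counts were not whole in any of the 8 birds, and no gene with which it shared reads was found. FBP1 lies 3000 bases from FBP2 on the same chromosome and had 29 to 81 counts per bird, with 7.67 ± 0.814 CPM in the high-shear birds and 8.27 ± 2.39 CPM in the low-shear birds (SD, n = 4 each), and 0.343 ± 0.160 and 0.405 ± 0.176 counts per 100 of FBP2.

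Aldolase splits the sugar bisphosphate and triosephosphate isomerase links its products. ALDOC, the aldolase of brain in mammals, averaged 605 ± 78.7 CPM in the high-shear birds and 554 ± 99.8 CPM in the low-shear birds (SD, n = 4 each), a log2 fold change of 0.13 ± 0.18 (SE). ALDOC counts were not whole in any of the 8 birds, so its level is an estimate. TPI1, the triosephosphate isomerase, had 9956, 9078, 7530 and 8786 CPM in the high-shear birds and 7962, 9408, 7732 and 7535 CPM in the low-shear birds. The groups overlapped, and the log2 fold change was 0.12 ± 0.17 (SE).

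The lower steps, which yield ATP and NADH, held most of the counts. GAPDH, the dehydrogenase often used as a reference gene (chromosome 1, 76434647 to 76437498), had 93482, 120050, 83021 and 91415 CPM in the high-shear birds and 84190, 119280, 71773 and 66943 CPM in the low-shear birds. Bird 2 of each group was the highest, and low-shear birds 3 and 4 were the lowest of all. The log2 fold change was 0.18 ± 0.23 (SE; edgeR adjusted p = 0.759) with a 95% interval from -0.32 to 0.68, and it was 0.02 without low-shear birds 1 and 3, 0.06 without high-shear bird 2 and 0.36 without low-shear bird 2. PGK1, phosphoglycerate kinase, averaged 7418 ± 1442 CPM in the high-shear birds and 7727 ± 1011 CPM in the low-shear birds (SD, n = 4 each). PGAM1, phosphoglycerate mutase, averaged 3606 ± 387 CPM in the high-shear birds and 3618 ± 889 CPM in the low-shear birds (SD, n = 4 each). Their log2 fold changes were -0.06 ± 0.19 and -0.0048 ± 0.20 (SE), and that of PGAM1 was 0.016 with upper-quartile scaling. ENO1, the widely expressed enolase, averaged 1037 ± 79.5 CPM in the high-shear birds and 1058 ± 118 CPM in the low-shear birds (SD, n = 4 each).

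PKM, the pyruvate kinase gene of muscle (chromosome 10, 1079290 to 1096764), had 12978, 11237, 11837 and 11610 CPM in the high-shear birds and 14726, 11859, 11159 and 9529 CPM in the low-shear birds. The high-shear birds lay within the range of the low-shear birds, and the log2 fold change was 0.01 ± 0.18 (SE; edgeR adjusted p = 0.985), or -0.01 with RLE scaling. The coefficient of variation was 6.3% in the high-shear birds and 18.4% in the low-shear birds.

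LDHA, the lactate dehydrogenase subunit that prevails in fast muscle (chromosome 5, 11936824 to 11942582), had 44589, 36036, 26489 and 30501 CPM in the high-shear birds and 31372, 35193, 30401 and 30085 CPM in the low-shear birds. High-shear bird 1 was the highest and high-shear bird 3 the lowest of the 8, with the low-shear birds between them. The log2 fold change was 0.12 ± 0.20 (SE; edgeR adjusted p = 0.83). LDHB, the subunit that prevails in heart and oxidative muscle, had 66.3, 90.5, 90.3 and 92.6 CPM in the high-shear birds and 69.0, 65.6, 55.3 and 97.8 CPM in the low-shear birds. In 3 high-shear birds LDHB lay above 3 of the 4 low-shear birds, but each group had 1 bird on the other side, and the log2 fold change was 0.24 ± 0.19 (SE; edgeR adjusted p = 0.606), 0.41 without low-shear bird 4 and 0.02 without low-shear birds 1 and 3. There were 0.261 ± 0.0836 LDHB counts per 100 LDHA counts in the high-shear birds and 0.228 ± 0.0667 in the low-shear birds (SD, n = 4 each), again not corrected for length.

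**Figure D2:**
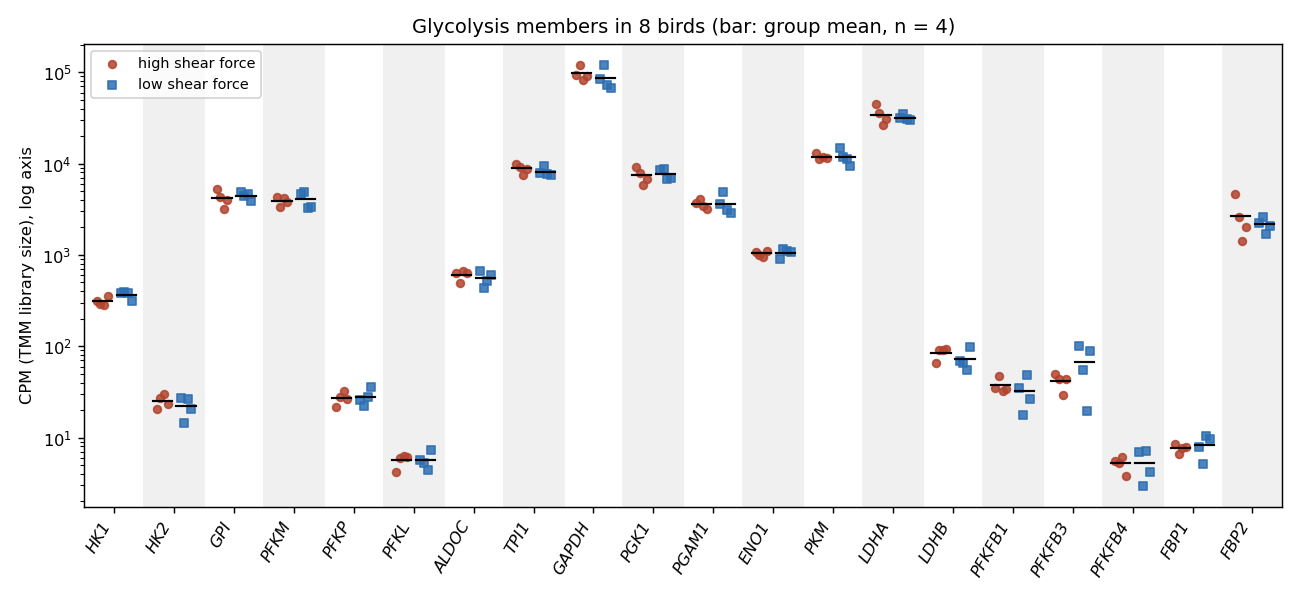
Level of the 20 glycolysis genes in each of the 8 birds, in CPM on a log axis, with high-shear birds as circles and low-shear birds as squares; bars are group means, n = 4. Levels are not corrected for transcript length, so they compare birds within a gene; the groups overlap in every gene, and PFKFB3 has the widest spread in the low-shear birds, from 19.4 to 102 CPM.

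Several glycolysis genes had their extremes in the same birds. GPI, TPI1, PGK1, LDHA and FBP2 each had their highest level of all birds in high-shear bird 1 and their lowest in high-shear bird 3, as did the glycogen gene GBE1. So did the fast fibre marker TNNT3, at 30980 and 21282 CPM, and the share of all genes that did so was not counted. In the low shear force group, bird 2 had the highest level of HK1, PFKM, PGAM1 and ENO1 and the lowest of HK2, ALDOC, PFKFB1, PFKFB4 and FBP1. The range between birds of the same group was wider than the distance between the group means for these glycolysis and glycogen genes.

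**Figure D3:**
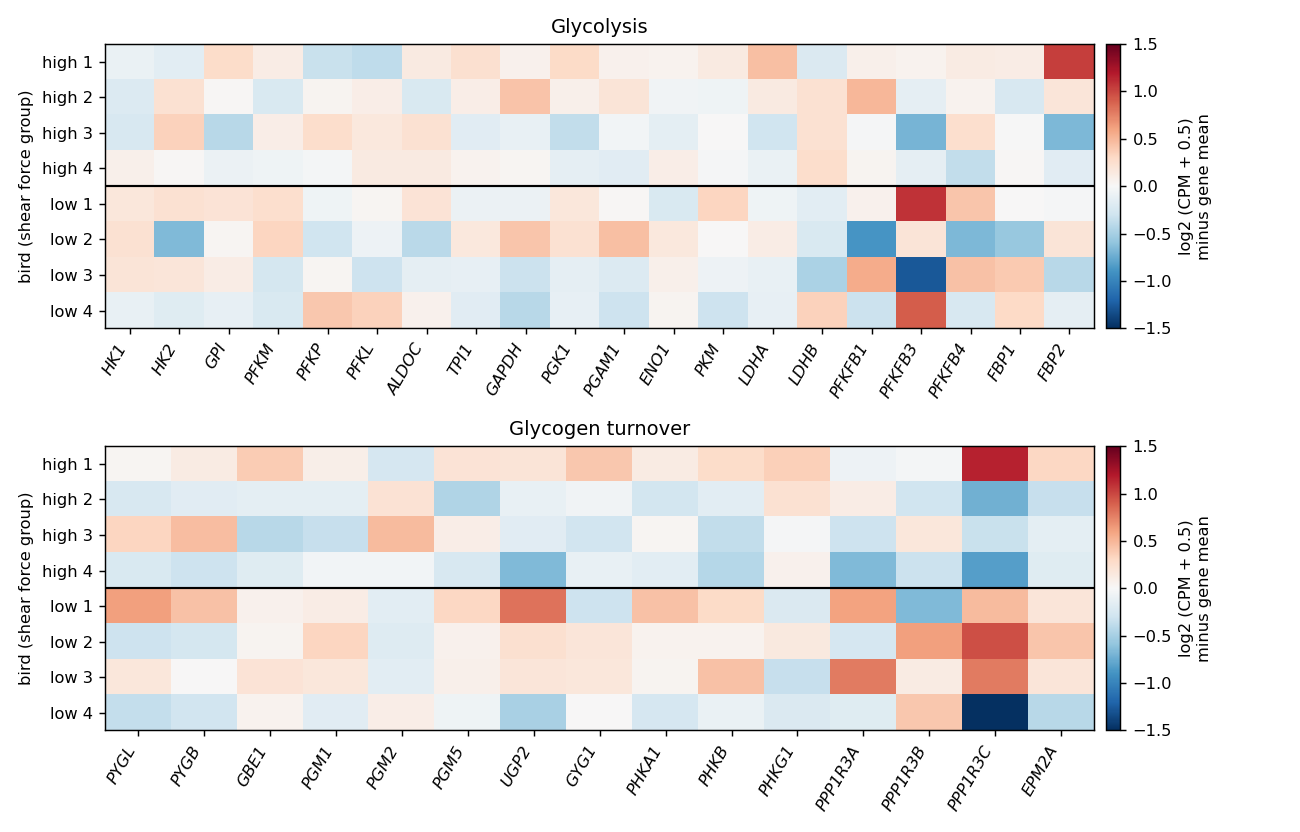
Deviation of each gene in each bird from the gene's mean over the 8 birds, in log2(CPM + 0.5), red above and blue below the mean, with the high-shear birds above the line; colours end at a deviation of 1.5 either way. High-shear bird 1 is high in FBP2 (4682 CPM) and PPP1R3C (64.0 CPM), and low-shear birds 1 and 3 are high in PPP1R3A (382 and 434 CPM).

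Glycogen is built from glucose phosphate in steps that begin with phosphoglucomutase. PGM1, the main phosphoglucomutase (chromosome 8, 26764668 to 26783622), had 6957, 5902, 5169 and 6368 CPM in the high-shear birds and 7090, 8189, 7387 and 5807 CPM in the low-shear birds. Low-shear birds 1, 2 and 3 were above all high-shear birds and bird 4 was below all but 1 of them, with a log2 fold change of -0.22 ± 0.18 (SE; edgeR adjusted p = 0.612). PGM5, a relative that in mammals is a structural protein of muscle adhesions and not an active enzyme, had 1.39 ± 0.334 counts per 100 of PGM1 in the high-shear birds and 1.36 ± 0.188 in the low-shear birds (SD, n = 4 each). PGM5 and PGM2, a relative that acts on pentose phosphates, stood at -0.18 ± 0.17 and 0.24 ± 0.22 (SE), with PGM2 on 41 to 93 counts per bird.

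UGP2, which makes the UDP-glucose that glycogen synthase uses (chromosome 3, 9438436 to 9460691), had 218, 177, 168 and 120 CPM in the high-shear birds and 334, 225, 215 and 135 CPM in the low-shear birds. Low-shear bird 1 was the highest and high-shear bird 4 the lowest, with a log2 fold change of -0.41 ± 0.26 (SE; edgeR adjusted p = 0.509) and of -0.11 without low-shear birds 1 and 3. GYG1, glycogenin, the protein on which a new glycogen chain starts, averaged 387 ± 84.5 CPM in the high-shear birds and 391 ± 58.3 CPM in the low-shear birds (SD, n = 4 each), a log2 fold change of -0.02 ± 0.19 (SE) that was 0.00018 with upper-quartile scaling. GBE1, the branching enzyme, had 131, 90.2, 74.5 and 88.1 CPM in the high-shear birds and 104, 103, 115 and 103 CPM in the low-shear birds. High-shear bird 1 was above all low-shear birds and the other 3 high-shear birds were below all of them, with a log2 fold change of -0.15 ± 0.17 (SE), or -0.34 without high-shear bird 1 (edgeR adjusted p = 0.317).

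Phosphorylase takes glucose units off glycogen. PYGL and PYGB, its liver and brain forms, had 122 ± 23.2 and 36.7 ± 9.096 CPM in the high-shear birds and 131 ± 43.2 and 35.4 ± 8.88 CPM in the low-shear birds (SD, n = 4 each). Their log2 fold changes were -0.098 ± 0.23 and 0.05 ± 0.21 (SE), or 0.29 ± 0.20 and 0.30 ± 0.22 (SE) without low-shear birds 1 and 3. Both had counts that were not whole in all 8 birds. The counts of PYGL, PYGB and 1 gene without an entry in the authors' table summed to whole numbers within 0.031 in every bird. Sums of this kind arise when reads are divided among genes, so both levels depend on how that division was made. What the gene without an entry is could not be determined. PYGB stood at 29.8 ± 2.14 counts per 100 of PYGL in the high-shear birds and 27.6 ± 2.504 in the low-shear birds (SD, n = 4 each).

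Phosphorylase kinase switches phosphorylase on, with a catalytic gamma subunit and regulatory alpha and beta subunits. The catalytic PHKG1 (chromosome 19, 4896318 to 4901236) had 1840, 1679, 1412 and 1499 CPM in the high-shear birds and 1234, 1590, 1134 and 1235 CPM in the low-shear birds. All 4 high-shear birds were above 3 of the 4 low-shear birds, and low-shear bird 2 was above 2 of them. The log2 fold change was 0.31 ± 0.17 (SE; edgeR adjusted p = 0.455), and 0.15 without low-shear birds 1 and 3. The beta subunit PHKB (chromosome 11, 6992610 to 7061529) had 1487, 1096, 947 and 907 CPM in the high-shear birds and 1498, 1275, 1659 and 1142 CPM in the low-shear birds. High-shear bird 1 lay among the low-shear birds and the other 3 high-shear birds below them, with a log2 fold change of -0.33 ± 0.20 (SE; edgeR adjusted p = 0.498), or -0.15 without low-shear birds 1 and 3. The alpha subunit PHKA1 had 968, 737, 907 and 797 CPM in the high-shear birds and 1204, 927, 918 and 745 CPM in the low-shear birds. The highest was low-shear bird 1, and the other birds of both groups lay within one range, with a log2 fold change of -0.15 ± 0.18 (SE). For every 100 PHKB counts there were 124, 153, 149 and 165 PHKG1 counts in the high-shear birds and 82.3, 125, 68.3 and 108 in the low-shear birds. This ratio was below all others in low-shear birds 1 and 3, and the groups overlapped only through high-shear bird 1 and low-shear bird 2. The ratio was chosen after the levels of its members were seen and was not tested.

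Protein phosphatase is brought to the glycogen particle by targeting subunits, which favour glycogen storage. PPP1R3A, the targeting subunit of striated muscle (chromosome 1, 26299344 to 26325360), had 238, 272, 202 and 159 CPM in the high-shear birds and 382, 211, 434 and 221 CPM in the low-shear birds. Low-shear birds 1 and 3 were above all others, and birds 2 and 4 of that group lay among the high-shear birds. The log2 fold change was -0.52 ± 0.26 (SE; edgeR adjusted p = 0.413), and -0.02 ± 0.22 (SE; edgeR adjusted p = 0.987) without low-shear birds 1 and 3. In the authors' deposited table, whose values run low over high shear force, PPP1R3A stood at 0.54 by edgeR with an unadjusted p of 0.0424 and an FDR of 0.388, and it was the single one of the 35 with such a p under 0.05, where 12.7% of the genes in that table had one.

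The other targeting subunits and laforin were less abundant than PPP1R3A in counts. PPP1R3C, a targeting subunit of many tissues in mammals, had 64.0, 17.1, 22.6 and 15.8 CPM in the high-shear birds and 39.9, 56.3, 49.3 and 9.75 CPM in the low-shear birds. The highest level was in high-shear bird 1 and the lowest in low-shear bird 4, each against the rest of its group, and the log2 fold change was -0.38 ± 0.57 (SE), with a 95% interval from -1.65 to 0.88. Without high-shear bird 1 it stood at -1.07 (edgeR adjusted p = 0.327). PPP1R3B, a form found in liver and muscle, rested on 31 to 71 counts per bird and stood at -0.32 ± 0.29 (SE), or -0.69 ± 0.25 (SE; edgeR adjusted p = 0.581) without low-shear birds 1 and 3. EPM2A, laforin, which removes phosphate from glycogen, averaged 38.3 ± 8.13 CPM in the high-shear birds and 43.8 ± 10.04 CPM in the low-shear birds (SD, n = 4 each), a log2 fold change of -0.20 ± 0.20 (SE).

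**Figure D4:**
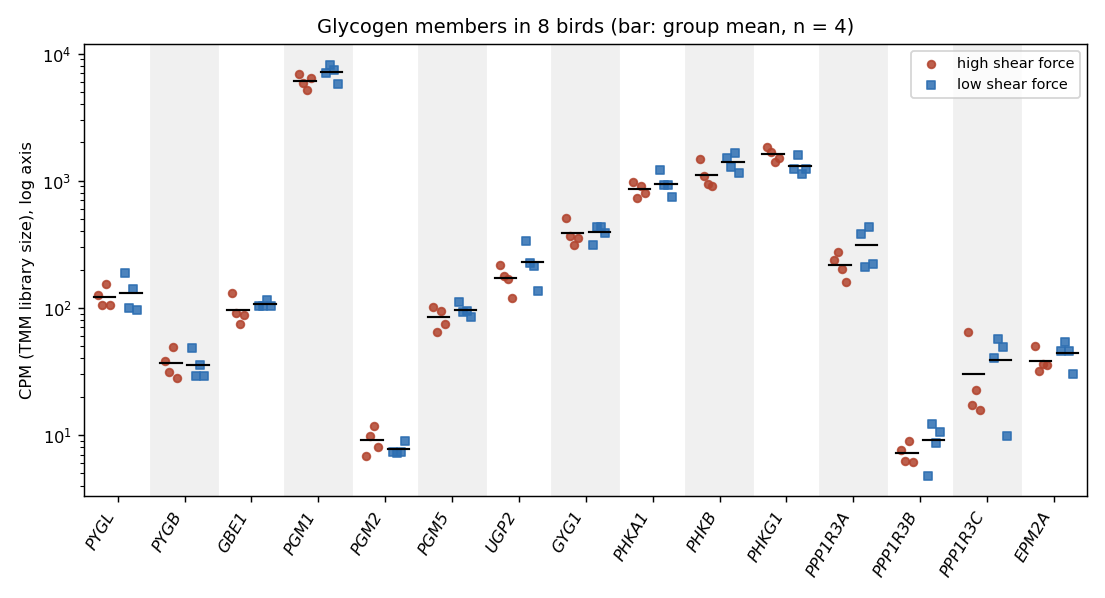
Level of the 15 glycogen genes in each of the 8 birds, in CPM on a log axis, with high-shear birds as circles and low-shear birds as squares; bars are group means, n = 4. Levels are not corrected for transcript length, so they compare birds within a gene; PPP1R3C spans 9.75 to 64.0 CPM, while the 4 birds with the highest PHKG1 levels include 3 of the high shear force group.

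A second table counts the same reads by transcript. The 35 genes had 37 transcripts with an entry in the authors' deposited transcript results, and all 37 were tested. Of these, 0 had an adjusted p under 0.05 in the edgeR quasi-likelihood test, against 0% of 10362 transcripts. An unadjusted p under 0.05 was found for 1 of the 37, PKM-201, where 12.4% of all transcripts had one. PKM and PHKB were the 2 genes with more than 1 transcript entered there. Transcripts without an entry are left out. LDHB-201, for example, held 627.27 of the 632 LDHB counts in high-shear bird 4 and 578.84 of 582 in low-shear bird 4. PKM-201 had 306, 427, 297 and 390 CPM in the high-shear birds and 251, 335, 157 and 260 CPM in the low-shear birds. Its log2 fold change was 0.501 ± 0.23 (SE; edgeR adjusted p = 0.4), and 0.21 ± 0.22 (SE) without low-shear birds 1 and 3, while PKM-202, which held nearly all PKM counts, stood at 0.0016 ± 0.18 (SE).

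The share of PKM counts in PKM-201 was 2.36%, 3.79%, 2.51% and 3.35% in the high-shear birds and 1.70%, 2.83%, 1.41% and 2.74% in the low-shear birds. The groups overlapped, and the difference of 0.832 percentage points had an exact permutation p of 0.171 over the 70 assignments of birds (2-sided, 0.343 after adjustment over the 2 genes), where the smallest possible p is 0.0286. Without low-shear birds 1 and 3, which had the lowest PKM-201 shares, the difference was 0.216 percentage points. The share of PHKB counts in PHKB-201 was 14.6%, 14.2%, 17.0% and 10.7% in the high-shear birds and 23.1%, 11.5%, 27.5% and 11.6% in the low-shear birds. Low-shear birds 1 and 3 stood above all others, and the difference of -4.31 percentage points (exact permutation p = 0.371) turned to 2.56 without them. Counting error on these shares was at most 0.134 and 0.847 percentage points (Wilson 95% interval, half-width), which does not cover the uncertainty of dividing reads between transcripts.

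**Figure D5:**
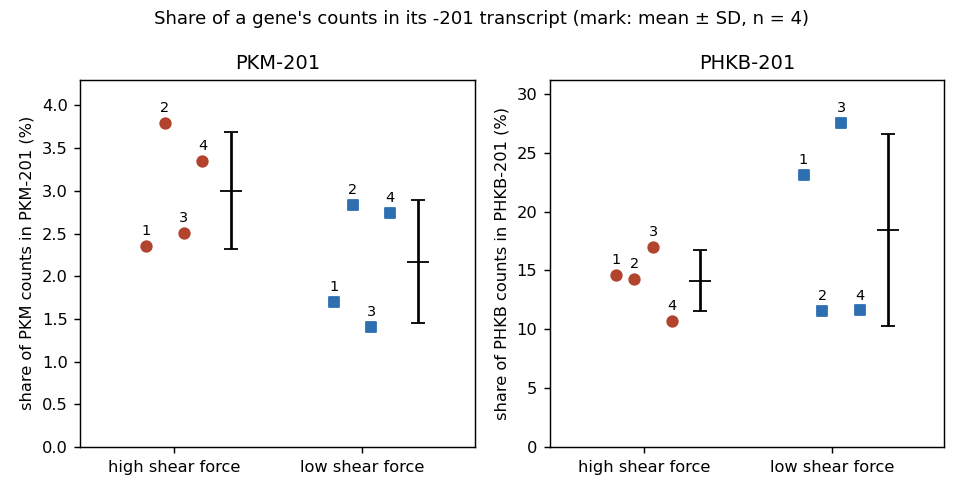
Share of PKM counts in the transcript PKM-201 and of PHKB counts in PHKB-201, in percent, in each bird (numbers are bird numbers), with mean ± SD of each group of 4 beside the points. PKM-201 lies between 2.36% and 3.79% in the high-shear birds and between 1.41% and 2.83% in the low-shear birds, and PHKB-201 is above 20% only in low-shear birds 1 and 3.

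Genes around glycolysis were read from 6 further lists, and 0 of their 65 tested entries passed an adjusted p of 0.05 in edgeR. Of 7 genes of hexose uptake and lactate transport 4 were positive (median 0.24) and 1 had an unadjusted p under 0.05: SLC16A1, the lactate carrier of oxidative cells, had 48.7, 71.5, 81.0 and 80.9 CPM in the high-shear birds and 38.7, 36.5, 30.6 and 58.0 CPM in the low-shear birds. The groups overlapped through 1 bird of each, and the log2 fold change was 0.79 ± 0.22 (SE; edgeR adjusted p = 0.23), or 0.54 ± 0.25 (SE) without low-shear birds 1 and 3. SLC16A3, the lactate exporter of glycolytic fibres, stood at 0.54 ± 0.33 (SE), BSG, the partner protein of these carriers, at 0.24 ± 0.18 (SE), or -0.03 without low-shear birds 1 and 3, and EMB, a related partner, at -0.86 ± 0.40 (SE). Markers of other cell types are set beside SLC16A1, with log2 fold changes from the edgeR fit. Over all genes tested, 12.8% had an unadjusted edgeR p under 0.05 and DESeq2 called 1.21%. A further share, 3.89%, is that of genes higher in all high-shear birds than in any low-shear bird. The 9 endothelial markers were all positive, with a median of 0.60 and 4 unadjusted p-values under 0.05, and summed to 267, 400, 506 and 456 CPM in the high-shear birds and 225, 293, 300 and 378 CPM in the low-shear birds. Of 5 smooth muscle and pericyte markers 4 were positive, with a median of 0.82, 4 unadjusted p-values under 0.05 and 2 DESeq2 calls. They summed to 981 to 1304 CPM in the high-shear birds and 989 to 1239 CPM in the low-shear birds. Most of that sum was DES, the negative marker, with means of 867 CPM in the high-shear and 975 CPM in the low-shear birds. TAGLN, MYLK and MYH11 were higher in all high-shear birds than in any low-shear bird, while RGS5 and DES overlapped. The 10 fibroblast markers had a median of 0.54. Of 4 red blood cell markers 3 were positive, with a median of 1.91, 3 unadjusted p-values under 0.05 and 3 DESeq2 calls, and they summed to 207 to 660 CPM in the high-shear birds and 126 to 149 CPM in the low-shear birds. Of 5 adipocyte markers 4 were positive, with a median of 0.43, 1 unadjusted p-value under 0.05 and 1 DESeq2 call. They summed to 233 to 334 CPM in the high-shear birds and 148 to 299.7 CPM in the low-shear birds. Of 6 leukocyte markers 2 were positive, with a median of -0.19. They summed to 693 to 1632 CPM in the high-shear birds and 755 to 1238 CPM in the low-shear birds. Most of that sum was CD74, a positive marker, with means of 1043 CPM in the high-shear and 755 CPM in the low-shear birds. The part of these cell types in the SLC16A1 value was not tested.

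In the list of further glycogen genes 7 of 10 entries had a negative log2 fold change, with a median of -0.23. CALM, a calmodulin gene whose product is also a subunit of phosphorylase kinase, stood at -0.297 ± 0.15 (SE) for the entry with the smaller p of the 2 that carry that symbol. That entry averaged 266 CPM in the high-shear and 327 CPM in the low-shear birds. The other CALM entry averaged 1501 and 1675 CPM and stood at -0.16 ± 0.18 (SE). PPP1CB, a catalytic subunit of the phosphatase, stood at -0.35 ± 0.21 (SE), and PGM2L1, a relative of phosphoglucomutase, at -0.43 ± 0.38 (SE), or 0.05 and 0.45 without low-shear birds 1 and 3.

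Of 13 genes that bring pyruvate into the mitochondria and set the activity of pyruvate dehydrogenase 10 had a negative log2 fold change, with a median of -0.13. PDK1, a kinase that switches pyruvate dehydrogenase off, had 7.504, 12.2, 7.53 and 10.3 CPM in the high-shear birds and 18.9, 13.9, 17.1 and 9.24 CPM in the low-shear birds. All low-shear birds but bird 4 lay above the high-shear birds, with a log2 fold change of -0.66 ± 0.26 (SE; edgeR adjusted p = 0.341), or -0.33 ± 0.29 (SE) without low-shear birds 1 and 3. BRP44, a subunit of the mitochondrial pyruvate carrier, stood at 0.39 ± 0.22 (SE), PDP2, a phosphatase that switches the complex on, at -0.38 ± 0.26 (SE), or 0.0020 without low-shear birds 1 and 3, and PDHX, a structural part of the complex, at -0.22 ± 0.16 (SE).

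None of the other lists held a gene with an unadjusted edgeR p under 0.05, which 12.8% of all genes tested had. The 10 further enzymes of glycolysis, gluconeogenesis and the glycerol phosphate shuttle had a median of -0.13, with 4 positive: G6PC3, a glucose phosphatase, stood at 0.396 ± 0.27, PGP, a phosphatase of glycolytic by-products, at -0.36 ± 0.29, GALM, which converts the forms of galactose and glucose, at 0.41 ± 0.35, and GPD2, the mitochondrial glycerol phosphate dehydrogenase, at -0.34 ± 0.35 (SE). Without low-shear birds 1 and 3 PGP stood at 0.0086 and GPD2 at 0.57. The 7 pentose phosphate genes had a median of -0.02, 2 of them positive, with PRPS2, which makes the activated ribose of nucleotides, at -0.32 ± 0.31, PGD, the phosphogluconate dehydrogenase, at 0.18 ± 0.196, TKT, transketolase, at 0.21 ± 0.26, and TALDO1, transaldolase, at -0.11 ± 0.14 (SE). The 18 regulators of glucose use had a median of -0.02, with 8 positive: EPAS1, a hypoxia-inducible factor, stood at 0.52 ± 0.25, MLXIP, a glucose-sensing transcription factor, at -0.81 ± 0.398, and PRKAB1 and PRKAB2, beta subunits of the AMP-activated kinase, at -0.35 ± 0.20 and 0.27 ± 0.16 (SE). MLXIP was higher in low-shear birds 1 and 3, at 49.2 and 62.1 CPM, than in the other birds, and stood at 0.17 without them.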

How the data were processed

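RNA was extracted with Trizol, prepared with a TruSeq kit and sequenced in technical repetitions, per the labels' protocols. The authors deposited expected counts per gene and per transcript, with a single column for each bird. The merging of repetitions, the read filters and the strandedness were not given in the sources used here. Overlapping genes may therefore share counts. The submitters' processing notes name RSEM, TopHat, Bowtie2, Cuffdiff, FastQC, DESeq2, edgeR and the galGal4 build, without roles. Log2 fold changes and p-values are from the fits described below unless named as the authors'. Symbols, coordinates and the values named as the authors' come from their deposited table, per the file headers. Its direction is not named there: 96.7% of its DESeq2 signs were opposite to those of high over low shear force, so it was read as low over high.

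Counts were rounded. Genes passing filterByExpr (10136, with 99.8% of the counts) were scaled by TMM and tested with the robust quasi-likelihood test of edgeR 4.0.16 in R 4.3.3 on group alone, with Benjamini-Hochberg adjustment over all genes at 0.05. CPM uses TMM library sizes. The SE of a log2 fold change was not fitted directly but taken as its absolute value over the square root of that test's F statistic. The 95% intervals use this SE and the degrees of freedom of that test. All p-values are 2-sided. DESeq2 1.42.0 and limma 3.58.1 served as alternatives. The procedure was tested on simulated data. The fits measure the spread between birds, which the labels list as separate samples.

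The members and lists were chosen with earlier results of these data known. Every member may be named. Values in each bird were to be given for members with an unadjusted p under 0.05 and for the 4 of each class with the highest CPM, and other members shown by bird were chosen after their values were seen. Of each further list the 4 genes with the smallest p are named, except where a result is not reported here. No sequences were used here.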

Additional observations from a re-analysis of the deposited data

Results flagged for a closer look

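In 7 of 84 groups of 4 birds 1 bird lay far from the other 3 (Dixon's ratio above its 95% critical value), where chance gives about 1 in 20. In the high-shear group bird 1 was low in LDHB (66.3 CPM, others 90.3 to 92.6) and in PFKL (4.15 CPM, others 5.98 to 6.27), and high in PPP1R3C (64.0 CPM, others 15.8 to 22.6). High-shear bird 2 was high in PFKFB1 (47.3 CPM, others 32.7 to 35.1). In the low-shear group bird 4 was low in HK1 (310.0 CPM, others 379 to 393) and high in PGM2 (8.905 CPM, others 7.195 to 7.38), and bird 3 was high in GBE1 (115 CPM, others 103 to 104.0).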

How the results depend on the processing

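The count of glycolysis and glycogen genes with an adjusted p under 0.05 was 0 under every setting run. Over all genes the count was 7 without the filter on low counts, 123 by DESeq2, 0 to 7 when 1 bird was left out, and 0 otherwise except under the block. Whether bird numbers pair the birds is not settled here. The correlations of same-numbered deviations were 0.014, -0.0032, 0.205 and 0.318, and 3 of 8 birds correlated best with their own number. With the replicate number as a block, 1 gene was called over all genes. Under that block UGP2 alone of the 35 had an unadjusted edgeR p under 0.05, where 14.9% of all genes had one. The median log2 fold change when 1 bird was left out ran from -0.034 to 0.038 for glycolysis and from -0.29 to -0.11 for glycogen. An unadjusted p under 0.05 was found for 3 of the 35 genes without high-shear bird 1 (GBE1, PHKB and PPP1R3C), where 14.6% of all genes had one, or without low-shear bird 4 (LDHB, PPP1R3A and UGP2), where 18.6% had one, and for 4 without low-shear birds 1 and 3 together (HK2, PFKFB1, PFKFB3 and PPP1R3B), where 7.51% of all genes had one. PPP1R3A also had one by DESeq2 (13.2% of all genes), without the filter on low counts (10.1%) and without high-shear bird 2 (8.89%). Without low-shear bird 2, PPP1R3A and PHKG1 had one (15.2% of all genes). PPP1R3B had one without low-shear bird 1 (7.75%) and PFKFB3 without low-shear bird 3 (8%). Log2 fold changes that changed sign were PFKL -0.018, PKM -0.013, PKM-202 -0.025 with RLE scaling, PGAM1 0.016, GYG1 0.00018 with upper-quartile scaling, PFKL -0.0054, PKM-202 -0.0095 without the filter, PFKL -0.0093, PKM -0.0013, PKM-202 -0.00083 with a filter at 1 CPM in 4 birds, PGAM1 0.019, PFKFB4 0.017 with the block, PFKL -0.014, PKM -0.013, PKM-202 -0.025 by DESeq2 and PGAM1 0.018, PFKFB4 0.0086 by limma-voom. Without low-shear birds 1 and 3 those were PFKL -0.18, PFKFB4 0.50, FBP1 0.013, PYGL 0.29, BSG -0.032, PDP2 0.0020, PGP 0.0086, GPD2 0.57, PPP1CB 0.052, PGM2L1 0.45, MLXIP 0.17, PHKB-201 0.14. With 1 bird left out the sign changed for GPI -0.21 to 0.014, PFKM -0.17 to 0.016, PFKP -0.16 to 0.10, PFKL -0.12 to 0.14, ALDOC -0.00029 to 0.21, PGK1 -0.18 to 0.036, PGAM1 -0.11 to 0.15, ENO1 -0.13 to 0.0087, PKM -0.085 to 0.11, LDHA -0.035 to 0.22, PFKFB1 -0.0088 to 0.49, PFKFB4 -0.25 to 0.13, FBP1 -0.31 to 0.0030, FBP2 -0.11 to 0.51, PYGL -0.24 to 0.11, PYGB -0.12 to 0.21, GYG1 -0.18 to 0.066, GPD2 -0.58 to 0.023, PKM-202 -0.10 to 0.10. The cause was not tested. Scaling factors without the 35 genes were an alternative chosen after seeing the data, and no sign changed with them. Depth limits HK2, PFKL, PFKFB4, FBP1, PGM2, PPP1R3B and PPP1R3C most, each with under 100 counts in at least 1 bird.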
